A study of Mus musculus with 1248 samples.

Results

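The pre-B receptor and V(D)J recombination genes are 10 genes of early B-cell development: Rag1, Rag2, Dntt, Igll1, Vpreb1, Vpreb2, Vpreb3, Cd79a, Cd79b and Ighm. They were read per well as counts in each 1000000 gene counts (CPM) in wells of sorted single cells from mouse hindlimbs. A well was used when its RNA was that of a host blood cell rather than of the injected tumour, that is, when Krt8 plus Krt18 stood below the sum of Ptprc, Coro1a, Laptm5 and Rac2, and when Cd79a reached 200 CPM. This kept 282 of 707 host wells from bone, of 1248 deposited wells in all, and the table held 40756 genes. Because Cd79a picked the wells, its level in them is a description. The wells just outside the limit had Cd79a at 195, 185 and 174 CPM and those just inside at 202, 204 and 208 CPM, and 43 host wells lay between 100 and 400 CPM.

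The cells came from female BALB/c mice that had been injected through the heart with 4T1, a mammary carcinoma line of this strain, or with 4T1.2, a clone derived from it; both lines carried firefly luciferase and mCherry. Cells positive for mCherry were sorted from the hindlimbs at day 4 for both lines and at days 10 and 16 for 4T1; cultured cells of each line and 4T1 tumours of the mammary fat pad at day 22 served as controls. The labels call every cell of the bone groups a metastatic tumour cell. They give no animal or plate for any cell, so each of the 7 groups is 1 sample, wells are not replicates of a condition, and no test between groups was made. Intervals below cover counting error only, and reads carry no molecular identifiers.

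In a developing B cell, the recombinase made of RAG1 and RAG2 cuts the immunoglobulin genes, and terminal transferase, the product of Dntt, adds bases at the joints of the heavy chain. A rearranged mu heavy chain, encoded in part by Ighm, is brought to the surface with a surrogate light chain (Igll1 with Vpreb1 or Vpreb2) and the signalling pair CD79A and CD79B; this complex is the pre-B receptor. Its signal is known to drive a burst of division while Dntt and the Rag genes are shut off, after which the Rag genes return, the surrogate light chain is lost and the kappa light chain locus is opened. Bone marrow is where this takes place in the adult mouse.

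Igll1, Vpreb1 and Vpreb2 all lie on chromosome 16 (GRCm38, the build called mm10): Igll1 at chr16:16860671-16863985 and Vpreb1 at chr16:16868403-16870843, both on the minus strand, and Vpreb2 at chr16:17980428-17981273 on the plus strand. The protein-coding transcripts of Vpreb1 and Vpreb2 have 766 and 759 bases and were identical at 739 of 759 aligned positions (97.4%), with a longest identical stretch of 196 bases, which is longer than the 150-base reads. Reads of the pair may have been split or dropped in counting, so values of Vpreb1 and Vpreb2 as separate genes are uncertain. The exons of Vpreb1 also overlap those of Top3b on the opposite strand, and those of Rag1 (chr2:101638282-101649501, minus strand) and Rag2 (chr2:101624718-101632529, plus strand) overlap B230118H07Rik on the minus strand; the sources used here do not say whether counting used strand.

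Sequence upstream of the start is shown for members that were high in many of the same wells (Igll1, Vpreb2 and Dntt) and for Rag1, which varied more on its own. RefSeq (GRCm38.p6) gave the bases before the start for 8 of the 10 members; Cd79b and Ighm had no entry. Bases that an annotated exon of the same gene covers were left out, which leaves 250 bases for Igll1 (chr16:16863986-16864235, minus strand), 113 for Vpreb2 (chr16:17980315-17980427, plus strand), 250 for Rag1 (chr2:101649533-101649782, minus strand) and 250 for Dntt (chr19:41029025-41029274, plus strand). Capitals mark CAGGTG on either strand, a sequence that E proteins bind, and CCCNNGGG, the core of the EBF1 motif.
Igll1: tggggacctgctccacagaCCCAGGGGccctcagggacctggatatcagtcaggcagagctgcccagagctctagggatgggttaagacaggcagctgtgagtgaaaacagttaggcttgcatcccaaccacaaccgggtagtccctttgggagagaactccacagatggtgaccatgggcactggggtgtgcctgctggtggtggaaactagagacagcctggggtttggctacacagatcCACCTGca
Vpreb2: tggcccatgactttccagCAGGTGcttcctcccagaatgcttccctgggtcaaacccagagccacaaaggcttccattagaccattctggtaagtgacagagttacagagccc
Rag1: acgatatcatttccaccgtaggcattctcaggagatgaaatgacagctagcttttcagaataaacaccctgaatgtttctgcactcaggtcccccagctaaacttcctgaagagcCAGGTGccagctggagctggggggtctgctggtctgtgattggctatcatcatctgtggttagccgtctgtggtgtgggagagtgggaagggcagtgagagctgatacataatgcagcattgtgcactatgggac
Dntt: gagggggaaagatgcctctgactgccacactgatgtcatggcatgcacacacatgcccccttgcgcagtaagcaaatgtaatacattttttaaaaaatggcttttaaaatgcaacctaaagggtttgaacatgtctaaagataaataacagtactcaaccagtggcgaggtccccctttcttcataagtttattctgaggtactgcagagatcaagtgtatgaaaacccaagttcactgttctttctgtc
In the 250 bases before the start, CAGGTG was present in 5 of these 8 members (Rag1, Igll1, Vpreb1, Vpreb2 and Cd79a) and in 17.2% of 32851 RefSeq windows of the same length. CCCNNGGG was present in 1 of 8 (Igll1) and in 11.8% of the windows, and 2.43% of the windows held both, as Igll1 did. The motifs do not overlap each other in the Igll1 window. A match describes letters and does not show binding.

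Wells with Cd79a were common in the bone at day 4 and rare later. They were 143 of 359 host wells in the 4T1 group at day 4 (39.8%, exact binomial 95% interval 34.7% to 45.1%) and 131 of 188 in the 4T1.2 group at day 4 (69.7%, 62.6% to 76.2%). At day 16 they were 8 of 119 host wells (6.72%, 2.95% to 12.8%), and at day 10 there were 0 of 41, which allows a share of up to 7.32% by 3 counts of the total, or 8.60% as the upper bound of the exact 95% interval. These shares are of wells that passed an mCherry gate and a qPCR check for mCherry, so they are not shares of marrow cells. The fat pad had 0 of 10 host wells, and neither culture had a host well.

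The 282 wells carried a B-lineage profile: 7 of 8 B-lineage markers reached a median of 20 CPM in both day 4 groups, and Ms4a1, which marks later B cells, had a median of 0 in 4T1 and 1.58 CPM in 4T1.2. Total gene counts in these wells ran from 58509 to about 8227240 in 4T1 at day 4 and from 140976 to about 5002700 in 4T1.2. RNA of other cell types was present too. The summed level of 5 neutrophil granule genes (S100a8, S100a9, Ngp, Camp and Ltf) had a median of 753 CPM in 4T1 and 18115 CPM in 4T1.2 at day 4, against 0.345 and 24.3 CPM in the cultures, and in no selected well at day 4 did it fall under 262 CPM. It reached 1000 CPM in 50 of 143 4T1 wells and 94 of 131 4T1.2 wells; such wells are called neutrophil-RNA wells below and the other 93 and 37 neutrophil-low wells. The monocyte or macrophage sum moved the same way, with medians of 187 CPM in 4T1 and 3944 CPM in 4T1.2. In each group only 1 of its 6 markers reached a median of 20 CPM. C1qa, C1qb and Adgre1 had a median of 0 in 4T1.2, so the markers did not rise as a set. The T or NK, basophil and tumour epithelial sums had medians of at most 34.2 CPM in either group. A few wells stood far higher. The T or NK sum reached 1000 CPM in 1 well of each group, and the basophil sum in 1 4T1 well and 6 4T1.2 wells. The highest basophil sum was 63511 CPM, in 4T1.2. The tumour epithelial sum reached 1000 CPM in 0 4T1 wells and 1 4T1.2 well. The erythroid sum had medians of 171 and 232 CPM and reached 1000 CPM in 6 4T1 wells and 29 4T1.2 wells. Sums of plasmacytoid dendritic markers, 466 and 408 CPM, and of plasma cell markers, 196 and 215 CPM, had like medians in both groups. Median mCherry was 2781 CPM in the 4T1 wells and 324 CPM in the 4T1.2 wells, and in 4T1.2 it was 101 CPM in neutrophil-RNA wells and 2259 CPM in neutrophil-low wells. Levels and shares of the members and the comparison of the lines are therefore given with and without the neutrophil-RNA wells, while counts of wells by combination of genes are over all wells. The part of any of these other cell types in the results was not tested. Among neutrophil-low 4T1.2 wells, 5 of 37 still had 1000 CPM or more once Mpo and Elane, genes of earlier granulocytes, were added to the sum.

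The surrogate light chain was on or off from well to well. Igll1, which encodes lambda-5, ran from 0.836 to 6330 CPM in the 143 4T1 wells at day 4 with a median of 927 CPM, and from 0 to 6432 CPM in the 131 4T1.2 wells with a median of 134 CPM. It reached 20 CPM in 111 of 143 wells (77.6%) and 75 of 131 wells (57.3%), and only 1 and 8 of these lay between 20 and 100 CPM. The 2 groups overlapped over their whole range and differed in how many wells were on. Their upper quartiles over all wells were also apart, at 1389 CPM in 4T1 and 870 CPM in 4T1.2. In neutrophil-low wells alone the medians were 1055 and 749 CPM and the shares 80.6% and 70.3%, closer together than over all wells.

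Vpreb1, whose product pairs with lambda-5, followed Igll1. Its values ran from 0 to 5715 CPM in 4T1 (median 578 CPM) and from 0.462 to 5742 CPM in 4T1.2 (median 58.1 CPM), and it reached 20 CPM in 76.2% and 54.2% of wells. In neutrophil-low wells its medians were 675 and 445 CPM and its shares 76.3% and 70.3%. Both genes reached 20 CPM in 104 4T1 wells and 69 4T1.2 wells, Igll1 alone in 7 and 6, Vpreb1 alone in 5 and 2, and neither in 27 and 54. Across neutrophil-low wells the Spearman rho of the pair was 0.88 in 4T1 (93 wells) and 0.85 in 4T1.2 (37 wells); the wells of a group share a depth range and the same library preparation. The 2 genes were thus switched on in nearly the same wells.

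Vpreb2 was lower and seen in fewer wells. It ran from 0 to 1342 CPM with a median of 14.2 CPM in 4T1 and from 0 to 1025 CPM with a median of 0.725 CPM in 4T1.2. It reached 20 CPM in 67 and 39 wells, and in 67 and 38 of these Vpreb1 did as well. It stood above Vpreb1 in 1 well of each group. In neutrophil-low wells it reached 20 CPM in 47.3% of 4T1 and 37.8% of 4T1.2 wells. Given the near identity of the transcripts, how far Vpreb2 varied on its own cannot be read from these counts.

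**Figure D1:**
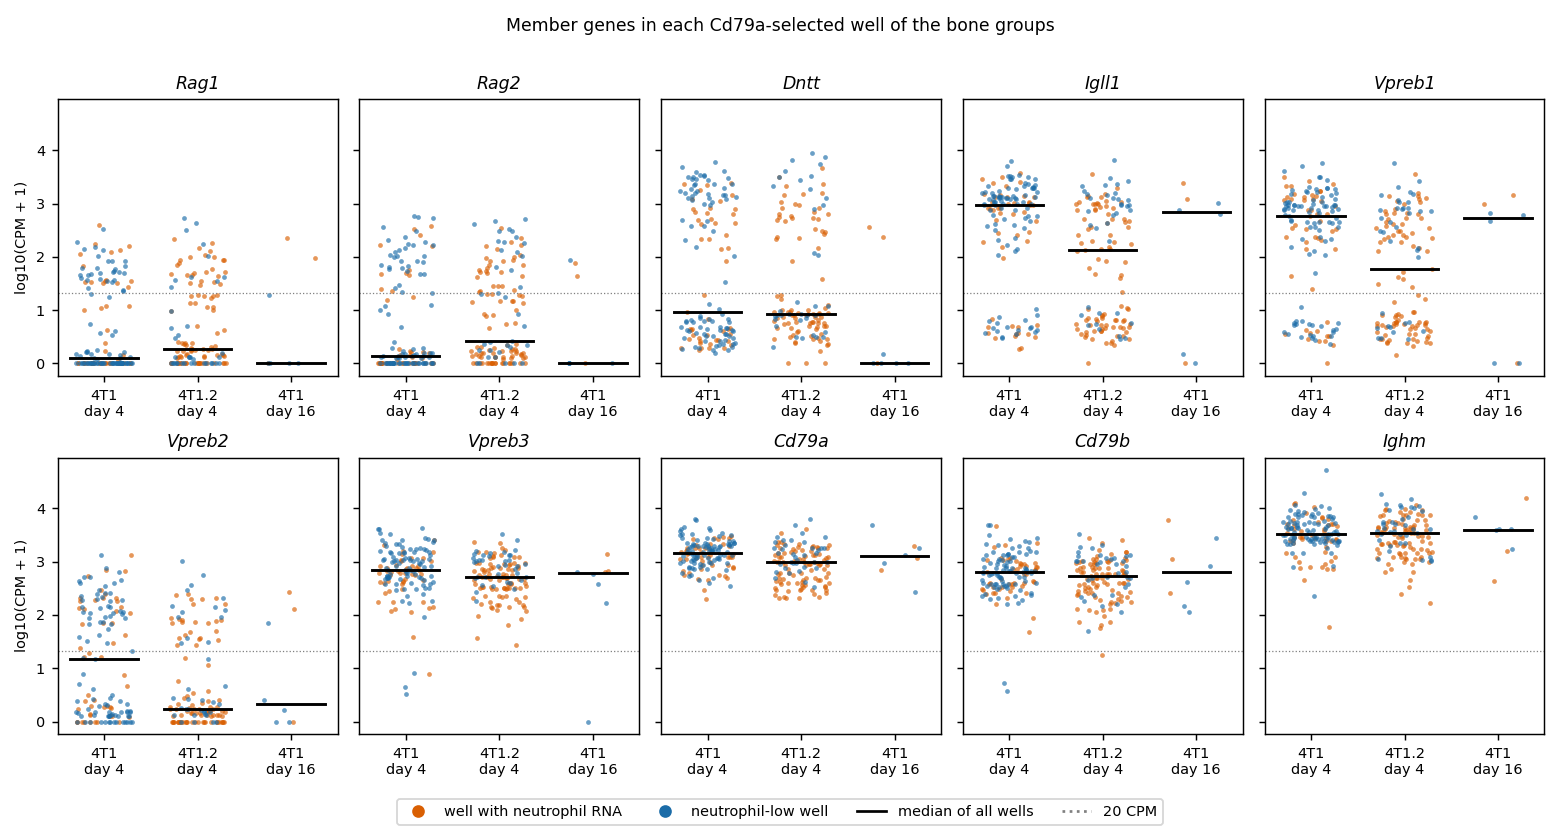
Each point is 1 selected well and the vertical axis is log10(CPM + 1) of the gene named above each panel; the horizontal axis gives the 3 bone groups, black bars the medians over all wells and the dotted line 20 CPM. Dntt, Igll1, Vpreb1 and Vpreb2 fall into a high and a low band, Vpreb3, Cd79b and Ighm form 1 band, and orange points (neutrophil-RNA wells) make up 94 of 131 wells in 4T1.2 and 50 of 143 in 4T1.

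The recombinase genes were present at low level in about the same share of wells in both groups. Rag1, which carries the catalytic centre, ran from 0 to 387 CPM (median 0.251 CPM) in 4T1 and from 0 to 543 CPM (median 0.900 CPM) in 4T1.2. It reached 20 CPM in 45 of 143 wells (31.5%) and 35 of 131 wells (26.7%). Rag2, the partner that reads histone marks, ran from 0 to 572 CPM (median 0.381 CPM) and from 0 to 521 CPM (median 1.69 CPM), and reached 20 CPM in 44 wells of each group (30.8% and 33.6%). In neutrophil-low wells the shares were 32.3% and 27.0% for Rag1 and 35.5% and 43.2% for Rag2, whose 4T1.2 median there was 16.3 CPM. Near the limit these calls are soft: 19 and 22 wells had a Rag level within 2-fold of 20 CPM, and a limit of 50 CPM gave Rag1 in 16.1% of 4T1 and 15.3% of 4T1.2 wells.

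The partners were often seen one without the other. Both reached 20 CPM in 19 4T1 wells and 16 4T1.2 wells, Rag1 alone in 26 and 19, Rag2 alone in 25 and 28, and neither in 73 and 68. Their rho in neutrophil-low wells was 0.38 in 4T1 and 0.21 in 4T1.2, lower than for Igll1 with Vpreb1. A weak correlation in sparse counts is not a finding about the genes.

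Dntt, terminal transferase, split the wells sharply. In 4T1 it ran from 0.551 to 6141 CPM, with a median of 8.36 CPM and an upper quartile of 1235 CPM; in 4T1.2 it ran from 0 to 9037 CPM, with a median of 7.63 CPM and an upper quartile of 499 CPM. It reached 20 CPM in 68 of 143 wells (47.6%) and 47 of 131 wells (35.9%), and only 2 wells of each group lay between 20 and 100 CPM. Apart from these, wells were either above 100 CPM or below 20 CPM. In neutrophil-low wells the shares were 47.3% and 40.5%. The low band was not at zero, so a limit of 5 CPM, which lies inside it, gave 58.7% and 69.5% of wells: Dntt was absent from 0 of 143 4T1 wells and 3 of 131 4T1.2 wells, but from 5 of 8 wells at day 16.

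Wells with Dntt were wells with surrogate light chain. Igll1 reached 20 CPM in all 68 Dntt wells of 4T1 and in 45 of 47 in 4T1.2. A Rag gene reached 20 CPM in 53 of 68 and 33 of 47 of them. The rho of Dntt with Igll1 in neutrophil-low wells was 0.63 in 4T1 and 0.61 in 4T1.2, and that of Dntt with Ighm was -0.43 and -0.48. In both groups, then, wells high in Dntt tended to be high in Igll1 and low in Ighm.

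Vpreb3, Cd79b and Ighm were on in nearly every selected well. Vpreb3, which binds newly made mu chains inside the cell, had medians of 692 CPM in 4T1 (2.32 to 4316 CPM) and 523 CPM in 4T1.2 (25.8 to 3247 CPM) and reached 20 CPM in 97.2% and 100% of wells. Cd79b, the beta chain of the signalling pair, had medians of 623 CPM (2.73 to 4875 CPM) and 543 CPM (16.3 to 3272 CPM). Cd79a, the alpha chain and the gene that picked the wells, had medians of 1472 and 963 CPM. Ighm, the mu constant region, had medians of 3265 CPM (59.2 to 52027 CPM) and 3387 CPM (164 to 18154 CPM), and no selected well was under 20 CPM. In neutrophil-low wells the medians in 4T1 and 4T1.2 were 895 and 889 CPM for Vpreb3, 646 and 882 CPM for Cd79b and 3596 and 4025 CPM for Ighm. Ighm can be transcribed from a locus that is not yet rearranged, so these counts do not show a complete heavy chain. Cd79a, Cd79b and Ighm were together at 20 CPM or more in 141 of 143 and 130 of 131 wells.

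Per kilobase of exon, the order of summed levels in the 4T1 wells at day 4 was Ighm at 2354 CPM per kb, Cd79a at 1114, Vpreb3 at 1086, Vpreb1 at 647, Cd79b at 575, Igll1 at 478, Dntt at 314, Vpreb2 at 135, Rag2 at 12.3 and Rag1 at 3.55 CPM per kb. In 4T1.2 the order was Ighm at 2239 CPM per kb, Cd79a at 824, Vpreb3 at 782, Cd79b at 487, Vpreb1 at 346, Dntt at 272, Igll1 at 260, Vpreb2 at 64.8, Rag2 at 14.7 and Rag1 at 4.66 CPM per kb. Neighbours such as Cd79a and Vpreb3, or Vpreb1, Cd79b and Igll1, lay well within the spread between wells. In both groups the constant region stood highest and the recombinase genes lowest on this scale. In neutrophil-low wells Ighm (2593 and 3094 CPM per kb) and Rag1 (3.51 and 7.06 CPM per kb) kept these places.

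Outside the selected wells the members were low but not all absent, which sets the background for these values. Among the 425 host wells of bone below the Cd79a limit, Igll1 and Vpreb1 reached 20 CPM in 2.35% each, Rag1 in 0.941%, Rag2 in 0.235% and Dntt in 4.24%, with a highest Dntt value of 3405 CPM. Cd79b did so in 12.2% and Ighm in 50.1%, with an Ighm median of 20.3 CPM. Median depth there was about 2796870 counts, close to the 2740140 and 2746100 of the selected day 4 wells. In cultured cells none of the 10 members reached 20 CPM in 54 wells of 4T1, and in 53 wells of 4T1.2 only Ighm did, in 5 wells. A level of a few CPM of Igll1, Vpreb1 or Dntt is thus what host wells without Cd79a carried as well, with medians of 2.44, 1.89 and 1.67 CPM.

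Wells were sorted into 4 ranges by the members themselves: surrogate light chain sum (Igll1 plus Vpreb1 plus Vpreb2) at 100 CPM or more with Dntt at 20 CPM or more (range 1) or under it (range 2), and surrogate sum under 100 CPM with Rag1 or Rag2 at 20 CPM or more (range 3) or with neither (range 4). These are ranges of values and not cell types. In 4T1 at day 4 they held 68, 46, 10 and 19 of 143 wells (47.6%, 32.2%, 6.99% and 13.3%). In 4T1.2 they held 45, 28, 16 and 42 of 131 wells (34.4%, 21.4%, 12.2% and 32.1%). The exact 95% intervals of range 4 were 8.19% to 20.0% in 4T1 and 24.2% to 40.8% in 4T1.2. They cover counting error within 1 sample a group, so they do not compare the lines. With a presence limit of 5 CPM the first 2 ranges of 4T1.2 came to 45.8% and 9.92%. Few wells sat near the surrogate limit: 7 in 4T1 and 8 in 4T1.2 were within 2-fold of it.

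In both groups, range 4 had the highest share of neutrophil-RNA wells (10 of 19 in 4T1). In 4T1.2, 36 of its 42 wells were neutrophil-RNA wells and the median mCherry level of the 42 was 41.6 CPM, against 1694 CPM in range 1. Without neutrophil-RNA wells the ranges held 44, 33, 7 and 9 of 93 wells in 4T1 and 15, 12, 4 and 6 of 37 in 4T1.2. Range 4 came to 9.68% (4.52% to 17.6%) and 16.2% (6.19% to 32.0%). The difference between the lines in range 4 thus moved with neutrophil RNA, whose part in it was not tested. Depth was alike, with median totals of about 2666880 and 2488970 counts in range 4.

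**Figure D2:**
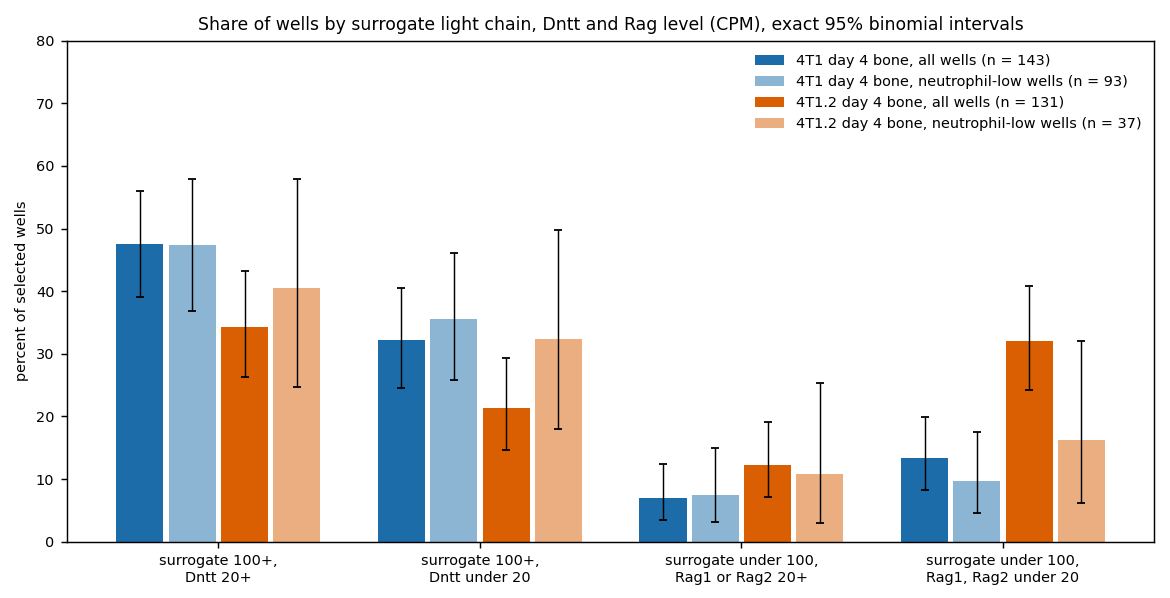
Bars give the percent of selected wells in each of the 4 ranges for 4T1 and 4T1.2 at day 4, with all wells (143 and 131) and with neutrophil-low wells only (93 and 37); error bars are exact 95% binomial intervals, which cover counting error only. Range 4, at the right, is 13.3% and 32.1% over all wells and 9.68% and 16.2% in neutrophil-low wells.

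**Figure D3:**
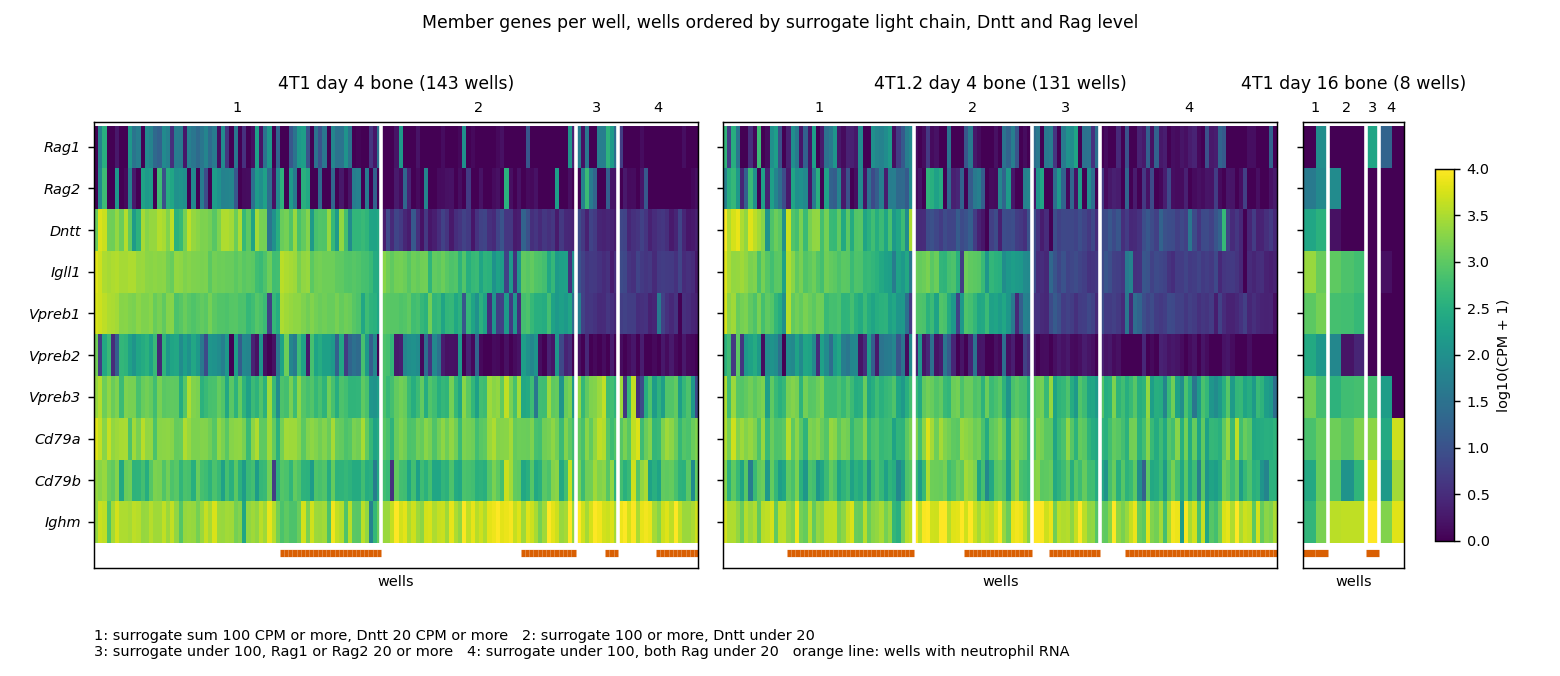
Rows are the 10 members and columns the selected wells of each group, ordered by range (1 to 4, divided by white lines) and, within a range, by neutrophil RNA (orange line) and surrogate sum; colour is log10(CPM + 1). Dntt, Vpreb1, Igll1 and Vpreb2 fade from left to right by construction of the ranges, while Vpreb3, Cd79b and Ighm stay on in all 4.

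Members that the ranges did not use also differed between them. Ighm had medians over neutrophil-low wells of both day 4 groups of 2703, 5343, 8210 and 5466 CPM in ranges 1 to 4 (59, 45, 11 and 15 wells). Cd79b had 646, 621, 1479 and 606 CPM, and Vpreb3 had 972, 757, 1484 and 399 CPM. Ighm was therefore lowest where Dntt was present, and Cd79b and Vpreb3 were highest in range 3, where a Rag gene was present without surrogate light chain. In range 1 the Rag genes, which do not define it, had medians of 21.9 CPM for Rag1 and 58.9 CPM for Rag2, against 0 and 0.381 CPM in range 2.

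Genes of the kappa light chain and of antigen presentation were higher where the surrogate light chain was low. Igkc, the kappa constant region, had medians of 5.48, 368, 1506 and 1209 CPM in ranges 1 to 4. Cd74, the invariant chain of MHC class II, had 5.69, 5.61, 211 and 49.8 CPM, and H2-Ab1, a class II beta chain, had 6.16, 51.2, 770 and 188 CPM. Ighd, the delta constant region of mature B cells, had 0.268, 0, 30.9 and 1.03 CPM. Cr2 and Fcer2a, receptors of mature B cells, had a median of 0 in all 4 ranges. Set against range 2 alone, the higher Igkc of surrogate-low wells was nearly all from 4T1 (log2 difference 2.77, against 0.13 in 4T1.2). Igkc, too, can be transcribed before rearrangement.

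**Figure D4:**
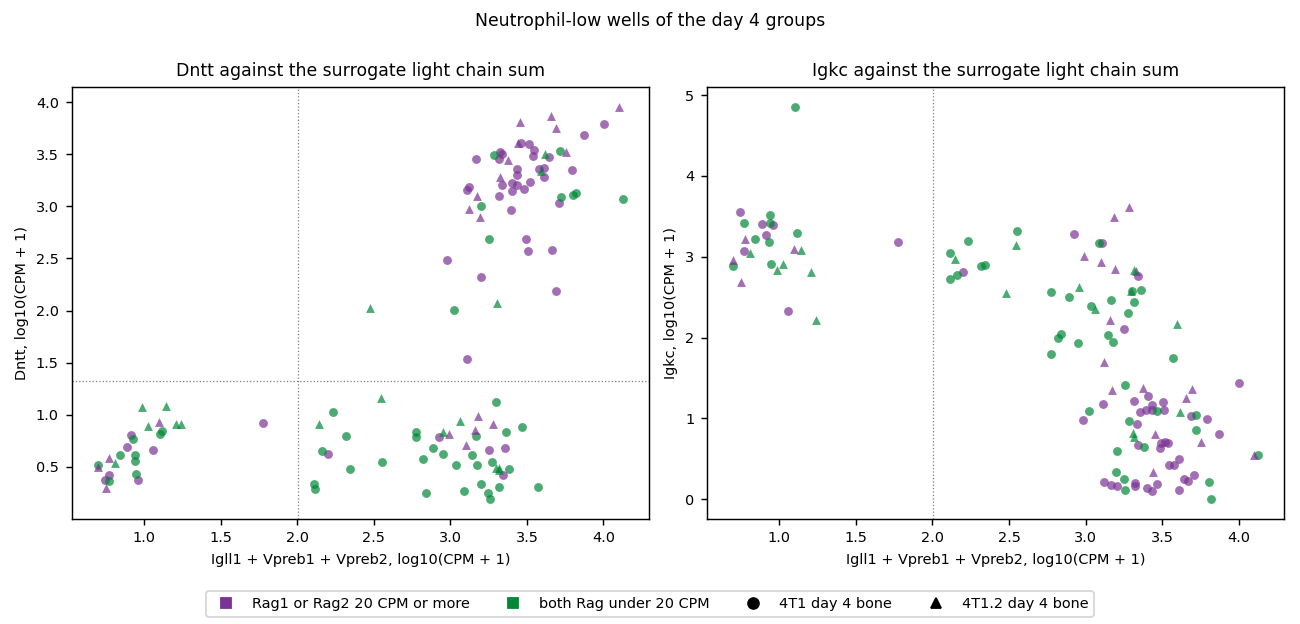
Each point is 1 neutrophil-low well at day 4 (circles 4T1, 93 wells; triangles 4T1.2, 37 wells); the horizontal axes give the surrogate light chain sum and the vertical axes Dntt (left) and Igkc (right), all as log10(CPM + 1), with dotted lines at the limits of the ranges. Wells with high Dntt lie at the high end of the surrogate sum and are mostly purple (a Rag gene at 20 CPM or more), and wells low in the surrogate sum are high in Igkc.

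Between range 1 (59 wells) and range 2 (45 wells), lists of related genes were compared by medians over neutrophil-low wells, as log2 of CPM plus 5. Of all 3777 genes at 20 CPM or more in either range, 16.9% were at least 2-fold higher and 12.6% at least 2-fold lower in range 1, with a median log2 difference of 0.02. Of 17 B-lineage transcription factors 16 were tested; 3 were higher in range 1 (Foxo1, Sox4 and Bcl11a) and 4 lower (Ikzf3, Spib, Bach2 and Irf4), with a list median of 0.08. Foxo1, known to drive Rag transcription, had 89.1 CPM in range 1 and 28.2 CPM in range 2. Irf4 had 19.4 and 302 CPM, Spib 4.02 and 197 CPM, and Ikzf3, which encodes Aiolos, 0 and 36.0 CPM; Irf4 and Ikzf3 are known to act downstream of the pre-B receptor. Of the 7, all but Sox4 differed in the same direction in 4T1 and 4T1.2 taken separately.

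Of 17 genes of pre-B receptor signalling 13 were tested, 2 being higher in range 1 and 5 lower (list median -0.09). The higher were Btk (47.5 against 19.9 CPM), a kinase downstream of the receptor, and Pik3cd (221 against 71.6 CPM), a PI3-kinase subunit. The lower were Blk (0.634 against 163 CPM) and Lyn (3.20 against 152 CPM), both Src-family kinases, and Ptpn6 (31.8 against 325 CPM), Cd22 (0 against 63.1 CPM) and Cd72 (2.50 against 376 CPM), which restrain receptor signalling. Lyn did not keep its direction in 4T1.2 alone, where Pik3cd differed by only 0.14, against 1.72 in 4T1. Btk was under 2-fold higher in each line taken separately (0.73 in 4T1 and 0.99 in 4T1.2). The shares called, 2 of 13 and 5 of 13, stand beside 16.9% and 12.6% of all genes. Syk and Blnk, the kinase and adaptor next to the receptor, had 117 and 592 CPM in range 1 and 166 and 294 CPM in range 2, under 2-fold apart on the log2 scale for Syk and just under for Blnk.

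No gene of the remaining 4 lists was called higher in range 1, where 16.9% of all genes were higher and 12.6% lower. The counts below rest on 4 to 12 genes tested in a list. Of 4 later B-cell genes tested, Igkc and H2-Ab1 were lower in range 1 (list median -1.18). Of 12 cell cycle genes, 3 were lower in range 1 (list median -0.60): Rrm2 (389 against 995 CPM), Ccnd2 (11.7 against 104 CPM) and Ccnd3 (673 against 1590 CPM), the last 2 being D-type cyclins, of which cyclin D3 is known to be needed for pre-B division. Mki67 and Top2a, markers of cycling cells, were alike at 614 and 1111 CPM in range 1 and 620 and 1067 CPM in range 2. Of 4 precursor receptors (list median 0.17), Cd24a was lower in range 1 (899 against 3663 CPM), and Il7r, the interleukin-7 receptor, had 113 and 93.1 CPM over both lines. By line, Il7r went opposite ways (log2 difference 0.74 in 4T1 and -0.31 in 4T1.2). Of 6 recombination and end joining genes tested (list median -0.19), 2 were lower, Prkdc and Mre11a, each with medians under 26 CPM, and Mre11a did not keep its direction in 4T1.2. Prkdc differed by -2.98 in 4T1.2 and only -0.22 in 4T1. Hmgb1 and Hmgb2, DNA-bending cofactors of the recombinase, were high in both ranges, at 1407 and 1394 CPM in range 1 and 1508 and 1557 CPM in range 2.

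Wells without surrogate light chain (ranges 3 and 4 together, 26 wells) were then set against range 2. Of 3521 genes tested, 10.2% were at least 2-fold higher and 37.9% at least 2-fold lower in the surrogate-low wells, with a median log2 difference of -0.54, so lower values were common overall. Later B-cell genes went the other way: of 7 tested, 5 were higher (Igkc, Cd74, H2-Aa, H2-Ab1 and H2-Eb1) and Cd52 was lower, with a list median of 3.05. H2-Aa had medians of 239 CPM and 3.16 CPM, and H2-Eb1 of 65.0 CPM and 1.84 CPM. H2-Ab1 and Cd52 did not keep their direction in 4T1.2 alone, and there Igkc and H2-Eb1 differed by only 0.13 and 0.44, against 2.77 and 4.43 in 4T1; Cd74 (5.31 and 2.56) and H2-Aa (4.71 and 4.94) passed 2-fold in both.

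Of 12 cell cycle genes tested 7 were lower in the surrogate-low wells and none was higher, with a list median of -1.58. Over all genes 37.9% were lower and 10.2% higher, with a median of -0.54. Mcm6, a replication helicase subunit, had 106 against 787 CPM, Tyms, which makes thymidylate, 6.54 against 174 CPM, and Ccnd3 264 against 1590 CPM; all 7 kept their direction in both lines. The rest were under 2-fold apart. Mki67 (750 against 620 CPM), Top2a (1153 against 1067 CPM) and Cdk1 (259 against 225 CPM) were not lower. Ccnb1 (126 against 212 CPM) and Ccnb2 (401 against 443 CPM) were slightly lower. By line, Mki67 differed by 0.75 in 4T1 and -0.50 in 4T1.2. Lef1, a transcription factor of early B-cell precursors, had 4.00 against 170 CPM, and Il7r 37.9 against 93.1 CPM. The Il7r difference was nearly all from 4T1.2 (log2 difference -2.36, against -0.20 in 4T1). Of pre-B receptor signalling genes, Syk was higher (363 against 166 CPM) and so was Pik3cd, though not in 4T1.2 alone, and Plcg2, Ptpn6 and Cd22 were lower, of 12 tested. These shares, 2 of 12 higher and 3 of 12 lower, stand beside 10.2% and 37.9% of all genes. The lower share does not set this list apart. The transcription factors Foxo1 (89.4 CPM) and Bcl11a (35.0 CPM) were again higher than in range 2, as was Spib over both lines together (473 against 197 CPM) but not in 4T1.2 alone, while Ikzf3 and Lef1 were lower. Of 15 factors tested, 3 were thus higher and 2 lower, the lower share again below that over all genes. By line, Foxo1 was under 2-fold higher in each (log2 0.80 in 4T1 and 0.86 in 4T1.2), and Bcl11a stood at 1.00 and 0.98. Range 3 alone, with 11 wells, had a median Mki67 level of 1301 CPM and a median Mcm6 level of 7.36 CPM.

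**Figure D5:**
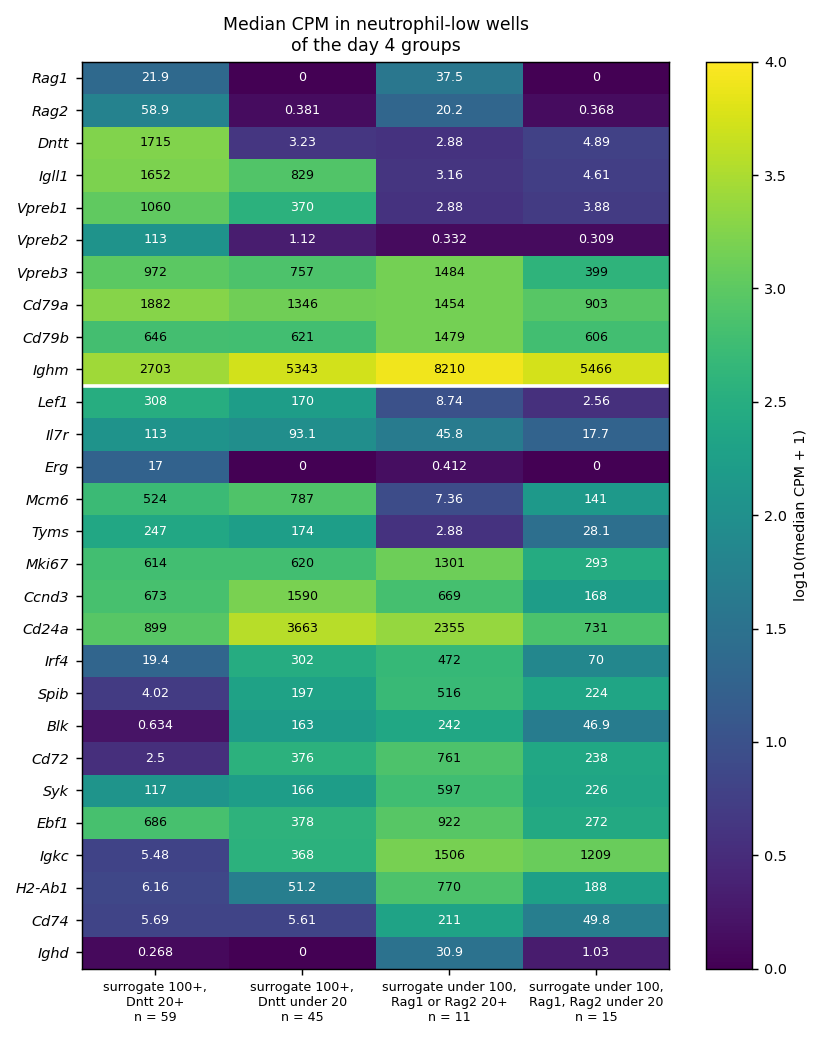
Numbers and colour give the median CPM (colour as log10 of the median plus 1) of each gene in neutrophil-low wells of both day 4 groups, by range (59, 45, 11 and 15 wells). The 10 members stand above the white line; below it Lef1 is at 308 CPM in the first column and 2.56 CPM in the last, and Igkc at 5.48 and 1209 CPM.

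The members were compared between the lines by counts summed over wells. None of the 10 was at least 2-fold higher or lower in 4T1.2 than in 4T1 at day 4, where 4.26% of 7567 genes were higher and 1.97% lower. With shares this low, 0 of 10 does not set the members apart. Some other settings, given below, called members lower in 4T1.2. The surrogate light chain genes came closest to 2-fold. Summed Igll1 was 1035 CPM in 4T1 and 563 CPM in 4T1.2 (log2 difference -0.87), Vpreb1 was 776 and 415 CPM (-0.90) and Vpreb2 was 103 and 49.2 CPM (-0.99). Dntt was 719 and 624 CPM (-0.20), Rag1 was 23.5 and 30.8 CPM (0.33) and Rag2 was 42.1 and 50.4 CPM (0.23). Vpreb3, Cd79a, Cd79b and Ighm differed by -0.47, -0.43, -0.24 and -0.07. The median over the 10 members was -0.34, beside -0.15 over all genes tested.

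Without neutrophil-RNA wells the surrogate light chain genes were level by summed counts, though their medians over wells stayed lower in 4T1.2. Those medians in 4T1 and 4T1.2 were 1055 and 749 CPM for Igll1, 675 and 445 CPM for Vpreb1 and 6.85 and 1.66 CPM for Vpreb2. Summed over the 93 and 37 neutrophil-low wells, Igll1 was 1162 CPM in 4T1 and 1048 CPM in 4T1.2 (-0.15). Vpreb1 differed by -0.13 and Vpreb2 by -0.03. Rag1, Rag2 and Dntt were higher in 4T1.2 by 0.87, 0.96 and 0.63, with Rag2 at 50.2 and 103 CPM. Again 0 of 10 members passed 2-fold, where 4.12% of 7494 genes were higher and 3.19% lower, and the member median was -0.02 beside -0.05. For Dntt and Ighm the sign of the difference changed with these wells left out. By medians over all selected wells instead of sums, Igll1 and Vpreb1 were lower in 4T1.2 by 2.74 and 3.21 on the log2 scale. There the median falls in the gap between wells with and without surrogate light chain.

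With all wells, 2 genes of the pathway lists passed 2-fold between the lines. Of 85 list genes tested with all wells, Ms4a1 was higher in 4T1.2 (57.0 CPM in 4T1 and 129 CPM in 4T1.2) and Tyms was lower (233 and 102 CPM). This is 1 of 85 in each direction, below the shares of all 7567 genes, 4.26% higher and 1.97% lower. Of 18 recombination and end joining genes 15 were tested and 0 passed 2-fold, with a median of -0.31; of 17 pre-B receptor signalling genes 16 were tested and 0 passed, with a median of -0.06; and of 17 transcription factors all 17 were tested and 0 passed, with a median of -0.11. The most abundant by summed level in 4T1 were Hmgb2 in the first list (1569 CPM in 4T1 and 1247 CPM in 4T1.2) and Tcf3, which encodes E proteins, in the third (784 and 566 CPM). In neutrophil-low wells 9 list genes of 80 tested passed 2-fold, beside 4.12% and 3.19% of all genes higher and lower. The 4 higher in 4T1.2 were Myc (1.83), Spib (1.06), Lig4 (1.04) and Ltb (1.03). The 5 lower were Dclre1c (-1.24), Erg (-1.19), Cd74 (-1.08), Tyms (-1.08) and Cd83 (-1.06). Ms4a1 was not called there (57.0 and 76.0 CPM). Lig4 and Dclre1c, of end joining, stood at 27.1 and 61.2 CPM and at 29.8 and 9.69 CPM in 4T1 and 4T1.2.

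The 8 wells at day 16 covered all 4 ranges, with 2, 3, 1 and 2 wells in ranges 1 to 4. Cell 163 had Dntt at 234 CPM with Igll1 at 2381 CPM, Vpreb1 at 964 CPM and Rag2 at 43.1 CPM, and an Ighm level of 424 CPM, the lowest of the 8. Cell 171 had Dntt at 355 CPM, Igll1 at 1215 CPM, Rag1 at 92.6 CPM and Rag2 at 74.4 CPM, with 54968 CPM of the neutrophil genes. Cells 66, 150 and 155 had Igll1 at 770, 1007 and 625.3 CPM and Dntt at 0, 0.538 and 0 CPM. In these 5 wells Igll1 and Vpreb1 were on together, as in the day 4 groups.

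The other 3 wells at day 16 had almost no surrogate light chain. Cell 156 had Rag1 at 224 CPM with Cd79b at 6000 CPM, Ighm at 15407 CPM and Igkc at 2508 CPM. Cell 41 had Cd79a at 4886 CPM, Cd79b at 2768 CPM, Ighm at 6728 CPM and Igkc at 1773 CPM, with Rag1, Rag2, Dntt, Igll1, Vpreb1, Vpreb2 and Vpreb3 all at 0. Cell 131 had the lowest Cd79a of the 8, at 270 CPM, with Ighm at 1717 CPM and Igkc at 0. With 8 wells, of which 3 are neutrophil-RNA wells, no fold against day 4 is given.

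Genes most like a member across wells were sought among 6826 genes present at 20 CPM or more in at least 20% of the 143 4T1 wells, by Spearman rho, with the 131 4T1.2 wells beside it. For Igll1 the nearest were Lef1 (0.68 and 0.69), Impdh1 (0.68 and 0.76), an enzyme of guanine nucleotide synthesis, Gm43352 (0.64 and 0.58), Pnp (0.64 and 0.42) and Cdk6 (0.64 and 0.43). For Dntt they were the heavy chain variable segments Ighv1-77 (0.73 and 0.65) and Ighv1-85 (0.69 and 0.64), then Impdh1, Tspan13 and Atp1b3. For Rag1 the same 2 segments were among the 5, at 0.41 and 0.38 in 4T1 and 0.23 and 0.27 in 4T1.2, with Pnp, Hmgn3 and Tspan13. Variable segments form a family of close copies, so counts of 1 segment are uncertain.

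For Ighm the nearest genes were Fcrla (0.62 and 0.66), an Fc receptor-like protein of B cells, Cnp (0.61 and 0.69), Igkc (0.59 and 0.45), Herpud1 (0.56 and 0.62), a gene of the endoplasmic reticulum stress response, and Gm30211 (0.56 and 0.65). For Cd79b they were Tifa (0.53 and 0.57), H2-K1 (0.48 and 0.49), Fam129c (0.47 and 0.68), H3f3a (0.46 and 0.47) and Unc93b1 (0.46 and 0.44). In neutrophil-low wells the first-ranked gene of each kept a like rho in both lines (Lef1 0.59 and 0.64 for Igll1, Ighv1-77 0.75 and 0.75 for Dntt, Fcrla 0.68 and 0.63 for Ighm, Tifa 0.52 and 0.61 for Cd79b), other than Ighv1-77 for Rag1 (0.49 and 0.12). These are descriptions over wells that share a library preparation and vary in depth. No gene listed as nearest to Igll1 or Dntt was also listed for Ighm. Only the top-ranked genes of each member were listed, and no expected overlap was computed. Whether the wider sets of like genes are separate was not tested.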

How the data were processed

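Single cells sorted for mCherry were made into full-length cDNA libraries with a modified Smart-seq2 protocol and sequenced as paired 150-base reads, per the labels' protocols, and wells with an mCherry qPCR Ct above 30 were discarded. The authors deposited 1 table of whole-number read counts per gene symbol and well. The submitters' processing notes name build mm10, Seurat 3.1.2, R 3.6.2, STAR 2.6.0c, featureCounts 1.6.2, Trim Galore 0.6.6, FastQC 0.11.7 and SAMtools 1.7, with no role for each. Repeated date-like symbols (4 entries, 0.0149% of counts) were left out, and ERCC and reporter entries stayed out of totals.

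A well passed with at least 1000 genes, 50000 counts and at most 25% mitochondrial counts (1218 of 1248). CPM were taken per well, presence at 20 CPM, and groups compared by summed counts as log2 of CPM plus 5, called at 2-fold, with no test as each group is 1 sample. No doublet caller was run, and wells with RNA of another cell type were marked by neutrophil genes instead. TMM factors (edgeR 4.0.16) and DESeq2 1.42.0 size factors were alternatives. The ratio step was tested on simulated data. All 10 members are named, with genes called in each list, the most abundant, and the 5 most alike by rho; further list genes were named after their values were seen, and 1 gene that the rule picks is not reported here. Members and lists were chosen with earlier results of these data known. Positions are from GENCODE M21, and transcripts were aligned with Biopython 1.88. Python 3.11.15, numpy 2.4.6, pandas 2.3.3, scipy 1.17.1 and matplotlib 3.10.9 were used.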

Additional observations from a re-analysis of the deposited data

Results flagged for a closer look

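Among the 10 members in the 8 selected wells at day 16, the gap from the highest well to the next, as a share of the whole range, passed the 95% critical value of Dixon for 4 of them. With normally distributed values chance marks about 1 in 20 such groups; these CPM are skewed, the wells come from 1 sample and Cd79a chose them, so the gaps are a description. Cell 156 was the highest for Rag1 (223.6 CPM, next 92.6 CPM), Cd79b (5999.9 CPM, next 2768 CPM) and Ighm (15407 CPM, next 6728 CPM), and cell 41 for Cd79a (4886 CPM, next 1984 CPM).

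At day 10, where no well was selected, 4 members had a summed level over all 95 wells that was at least 5 CPM and above that of both cultures. It was 5.07 CPM for Vpreb3 (highest culture 1.03 CPM), 7.92 CPM for Cd79a (1.73 CPM), 12.5 CPM for Cd79b (0.891 CPM) and 78.7 CPM for Ighm (6.66 CPM), and Ighm reached 2565 CPM in its highest well. Rag1 (0.582 CPM) and Igll1 (1.14 CPM) were also above both cultures, at under 5 CPM.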

How the results depend on the processing

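No paired analysis was possible because no test was made: wells of a group share 1 sample. Leaving out wells with neutrophil RNA of 1000 CPM or more left 93, 37 and 5 selected wells in 4T1 day 4, 4T1.2 day 4 and 4T1 day 16, and at 300 CPM it left 2, 4 and 1, since nearly every well held some. A Cd79a limit of 100 CPM gave 2 selected wells at day 10. The other 17 alternatives for these numbers stayed within 1.5 times. Members at least 2-fold lower in 4T1.2 were 0 as reported and 1 with a pseudocount of 1 CPM, 1 with the highest well of each gene left out, 1 with the Cd79a limit of 100 CPM, 1 without the well filter, 2 with wells weighted equally and 2 by medians over wells. Genes at least 2-fold higher were 322 as reported, 578 with genes at 5 CPM or more, 578 with no filter on low values and 858 by medians over wells. Genes lower were 149 as reported, 241 by medians over wells and 239 without neutrophil-RNA wells. The share of called genes that were higher was 68.4%, 78.1% by medians and 56.4% without neutrophil-RNA wells. TMM and DESeq2 factors moved the median over all genes from -0.15 to -0.13 and -0.15. Igll1, Vpreb1, Vpreb2, Vpreb3 and Cd79a were lower in 4T1.2 under all 13 settings, Dntt under 11, Cd79b under 12, Ighm under 10 and Rag1 and Rag2 under 0. No member was called as reported, so no called member could change sign. The signs of the other called genes were not compared between settings. Of the shares of wells, 24 moved and 172 did not; most moves came from the presence limit, as given with each gene, or from neutrophil RNA. Thinning each well to 500000 counts left Rag1 in 31.9% and Rag2 in 31.2% of 4T1 wells.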

Other observations

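Members were also seen outside the selected wells. Cd79a reached 200 CPM in 2, 5 and 1 wells of 4T1 day 4, 4T1.2 day 4 and 4T1 day 10 whose keratin level put them outside the host rule. Dntt reached 20 CPM in 18 of 425 host wells of bone with Cd79a under the limit, and Igll1 and Vpreb1 in 10 each. No explanation was tested.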
